A study of Arabidopsis thaliana with 27 samples.

Results

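Of the 27313 Arabidopsis genes quantified in this series, 47 moved the same way in all 3 lines studied, whether the auxin pathway had been switched on, switched off or left as it was. They were chosen by their measured values: TPM (the share of a library's transcripts, corrected for transcript length and scaled to 1 total in every library) was summed per locus and averaged over the 3 libraries of a group, 0.5 TPM was added, and the mean after 180 min of estradiol was divided by the mean of the mock of the same line. A gene was taken as risen where all 3 ratios were at least 1.4 (23 genes), and as fallen where all 3 were at most 0.71 (24 genes), if it had at least 2 TPM in some group, as 17939 loci did. These ratios chose the genes, so the difference between 180 min of estradiol and the mock is given below as a description with no test.

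RNA was sequenced from the root tips (7 to 10 mm, 40 to 50 tips per RNA sample) of 5-d-old seedlings of pG1090::XVE ≫ ΔMP, pG1090::XVE ≫ AXR3-1 and Col-0, the wild type. In the first line the strong promoter G1090 drives XVE, a synthetic factor that turns on ΔMP, a form of the activator ARF5/MP freed from its repressors, once it binds estradiol. In the second it turns on AXR3-1, a stabilized form of the repressor IAA17. Each line stood for 180 or 90 min after liquid medium with 2.5 μM estradiol had been poured over the plants, or for 90 min after medium with DMSO, the mock, which gives 9 groups of 3 libraries, named A, B and C. Col-0 carries neither transgene and received the same media, and each transgenic genotype is represented by 1 line. No mock of 180 min was analysed here: between 180 min of estradiol and the mock, estradiol and 90 min of time cannot be told apart, whereas the 90 min estradiol group and the mock differ in estradiol and what it switches on, and the 2 estradiol groups differ in the time since treatment, which is also the length of exposure and induction. The hour of harvest was not given in the sources used here. The libraries held from 13634037 to 34272503 assigned read pairs (median 20071330). Every matched marker of root cap, endodermis, xylem, phloem and meristem was above 0.1 TPM in every group, and the root cap markers, for example, summed to 73.6 to 112 TPM over the 27 libraries. Root hair markers summed to 472 to 503 TPM in ΔMP and 60.5 to 86.6 TPM in AXR3-1 at 180 min of estradiol, against 222 to 282 TPM in the mocks of all lines. In Col-0 they summed to 271 to 355 TPM at 180 min of estradiol and 233 to 257 TPM in the mock. Since whole tips were sampled, fewer cells of a type and less RNA per cell cannot be told apart.

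Several of these genes belong to pathways that are known for other signals than auxin. Aliphatic glucosinolates are sulfur-containing defense compounds of the Brassicaceae. They are made from methionine, whose side chain is first lengthened in rounds of condensation, isomerization and oxidation and is then turned into the core structure by cytochrome P450 enzymes and sulfur-adding steps. SWEET proteins let sugars pass through membranes down their gradient, and members of this family load sucrose into the phloem. Abscisic acid, a hormone of drought and osmotic stress, is broken down by 8'-hydroxylases of the CYP707A family, and heat shock factors switch on chaperone genes when proteins unfold.

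The DNA just upstream of 4 of the genes shows which short motifs stand before them. The 180 bases before the annotated start are given 5' to 3' on the strand of the gene, from the RefSeq annotation of TAIR10.1, with motif matches in capitals. CYP83A1 (chr4:7992430-7992609, minus strand) and CYP707A3 (chr5:18371022-18371201, minus strand) are shown because a risen and a fallen gene carry the same 7 capital letters, in which a G-box (CACGTG) overlaps an ABRE, the abscisic acid response element (ACGTGT, here on the other strand). In CYP707A3 a W-box (TTGACC, also on the other strand) lies further upstream. HSFA2 (chr2:11135444-11135623, plus strand) is shown for its heat shock elements (GAANNTTC) on both sides of a G-box, and AT1G19530 (chr1:6763585-6763764, plus strand) because it alone among these genes holds the auxin response element TGTCTC, on the other strand.
CYP83A1: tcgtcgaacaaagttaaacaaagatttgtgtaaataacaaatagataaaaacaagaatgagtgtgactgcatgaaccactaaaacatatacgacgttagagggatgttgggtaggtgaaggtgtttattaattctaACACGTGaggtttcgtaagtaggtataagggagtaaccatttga
CYP707A3: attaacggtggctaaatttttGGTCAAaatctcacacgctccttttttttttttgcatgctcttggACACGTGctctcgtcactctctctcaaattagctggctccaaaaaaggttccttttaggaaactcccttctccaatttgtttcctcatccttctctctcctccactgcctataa
HSFA2: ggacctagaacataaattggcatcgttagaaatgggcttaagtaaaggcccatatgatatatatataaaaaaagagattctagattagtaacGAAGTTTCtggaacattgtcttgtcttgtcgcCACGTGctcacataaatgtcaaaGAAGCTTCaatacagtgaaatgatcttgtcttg
AT1G19530: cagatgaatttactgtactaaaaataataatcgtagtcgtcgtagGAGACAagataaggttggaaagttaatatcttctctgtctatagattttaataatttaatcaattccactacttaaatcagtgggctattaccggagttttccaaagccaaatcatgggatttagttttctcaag
The G-box lies 43 to 38 bases before the start in CYP83A1, 113 to 108 bases before it in CYP707A3 and 56 to 51 bases before it in HSFA2. Over the 250 bases before the start, searched on both strands, 44 of the 47 genes had an entry. The auxin response element occurred in 0 of 21 risen and 1 of 23 fallen genes (4.35%), and in 10.6% of the 17781 loci with at least 2 TPM. The ABRE occurred in 5 of 21 risen (23.8%) and 4 of 23 fallen genes (17.4%), and in 11% of those loci, and the G-box in 3 of 21 (14.3%) and 3 of 23 (13%), and in 7.34% of those loci. The W-box was found in 2 risen and 4 fallen genes (12.2% of those loci), the heat shock element in 1 and 3 (9.05%), the as-1 core TGACGT in 1 and 3 (8.01%), the evening element AAAATATCT in 0 and 1 (2.49%), the rapid stress element CGCGTT in 1 and 0 (2.68%) and the telo box AAACCCTA in 0 and 0 (3.57%). These matches of letters are a description and no test was made of them.

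Among the risen genes were 6 of the aliphatic glucosinolate pathway, from the lengthening of the side chain to the core structure. BCAT4 (AT3G19710) removes the amino group of methionine and so opens the pathway. BCAT4 had 16.8, 10.6 and 11.8 TPM at 180 min of estradiol against 4.97, 6.93 and 5.07 TPM in the mock of ΔMP. It had 17.56, 19.5 and 10.5 TPM at 180 min of estradiol against 8.33, 7.65 and 10.2 TPM in the mock of AXR3-1, and 14.9, 18.4 and 17 TPM at 180 min of estradiol against 6.45, 7.99 and 4.57 TPM in the mock of Col-0. The 3 libraries at 180 min lay above the 3 mock libraries in every line, and the ratio was 2.2 in ΔMP, 1.78 in AXR3-1 and 2.53 in Col-0. MAM1 (AT5G23010) condenses the resulting acid with acetyl-CoA. MAM1 had 13, 10.3 and 10.3 TPM at 180 min of estradiol against 6.2, 5.85 and 5.17 TPM in the mock of ΔMP. The values in AXR3-1 were 12.1, 13.4 and 9.74 TPM at 180 min of estradiol against 5.05, 5.73 and 6.15 TPM in the mock, and in Col-0 11.4, 10.6 and 12.6 TPM at 180 min of estradiol against 6.88, 6.3 and 4.75 TPM in the mock. Again no library at 180 min overlapped with the mock of its line, and the ratios (1.88 in ΔMP, 1.99 in AXR3-1 and 1.86 in Col-0) were close to each other. IMS2 (AT5G23020, also named MAM3) catalyzes the same condensation on longer chains, and IMD1 (AT5G14200) is the dehydrogenase that closes each round of elongation. These were the most abundant of the 6: IMS2 averaged 67.9 ± 6.51 TPM at 180 min and 41.6 ± 2.4 TPM in the mock of ΔMP (SD, n = 3 here and below), 81.9 ± 12.4 and 51.1 ± 2.94 TPM in AXR3-1, and 82.2 ± 4.51 and 49.7 ± 7.23 TPM in Col-0. IMD1 had ratios of 1.54 in ΔMP, 1.49 in AXR3-1 and 1.52 in Col-0. CYP83A1 (AT4G13770), the P450 enzyme that oxidizes the aldoximes of this pathway and whose upstream sequence is given above, had ratios of 1.6 in ΔMP, 1.46 in AXR3-1 and 1.77 in Col-0, and GSTF11 (AT3G03190), a glutathione transferase placed in the same pathway by coexpression, had 1.85 in ΔMP, 1.43 in AXR3-1 and 1.63 in Col-0. The libraries of these 2 genes at 180 min lay above the mock in every line, except for GSTF11 in AXR3-1, where library C had 4.64 TPM at 180 min against 4.71 TPM in mock library B.

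At 90 min of estradiol the same 6 genes were close to the mock in most groups. BCAT4 then had 7.9, 5.18 and 7.13 TPM in ΔMP, 7.7, 7.51 and 4.01 TPM in AXR3-1 and 8.31, 9.44 and 6.57 TPM in Col-0, and MAM1 had ratios to the mock of 1.18 in ΔMP, 0.8 in AXR3-1 and 0.952 in Col-0. The 6 genes varied together among libraries of 1 group: library C was the lowest of 3 for all 6 in AXR3-1 both at 180 and at 90 min, library A was the highest for all 6 in ΔMP at 180 min, and library B was the lowest for all 6 in ΔMP at 90 min. A wider list of the pathway, put together after these genes had been seen, held 32 names, of which 30 matched and 23 reached 2 TPM. Of the 17 that were not among the 6, 16 in ΔMP, 16 in AXR3-1 and 15 in Col-0 had a mean above the mock at 180 min, with median ratios of 1.13, 1.18 and 1.13, while the medians of all genes with 2 TPM were 0.997, 0.985 and 0.998. The reads of BCAT4, IMD1 and GSTF11 can include those of an overlapping gene (IKU2, AT5G14210 and NAC045), since the strandedness of the libraries was not given.

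Ranked by the smallest of its 3 ratios, the first of all risen genes was AT1G06830, a glutaredoxin, a small protein that reduces disulfides with glutathione. AT1G06830 had 13.8, 8.56 and 9.0 TPM at 180 min of estradiol against 2.28, 2.71 and 1.53 TPM in the mock of ΔMP. In AXR3-1 it had 9.17, 10.3 and 6.81 TPM at 180 min of estradiol against 1.22, 0.974 and 3.26 TPM in the mock, and in Col-0 9.35, 8.94 and 11.5 TPM at 180 min of estradiol against 3.62, 4.88 and 2.86 TPM in the mock. At 90 min the values were 2.9, 1.92 and 2.86 TPM in ΔMP, 1.52, 1.37 and 1.58 TPM in AXR3-1 and 2.97, 3.17 and 3.76 TPM in Col-0. Every library at 180 min was thus above every library at 90 min and every mock library. XTH20 (AT5G48070), an enzyme that cuts and rejoins xyloglucan in the cell wall, showed this order within each line. XTH20 had 20.9, 17.62 and 15 TPM at 180 min of estradiol against 8.86, 9.78 and 7.24 TPM in the mock of ΔMP. It had 15.7, 15.1 and 13.7 TPM at 180 min of estradiol against 8.23, 8.98 and 8.89 TPM in the mock of AXR3-1, and 18.5, 19.3 and 22.4 TPM at 180 min of estradiol against 12.3, 10.6 and 13.8 TPM in the mock of Col-0. Its 90 min means were below the mock, with ratios of 0.937 in ΔMP, 0.789 in AXR3-1 and 0.844 in Col-0.

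PID (AT2G34650), the kinase that directs PIN auxin transporters, and AT4G38860, of the SAUR family of auxin-responsive genes, were among the risen genes, each with its highest ratio in ΔMP. PID had 5.33, 3.91 and 4.43 TPM at 180 min of estradiol against 1.12, 1.48 and 1.53 TPM in the mock of ΔMP. The values in AXR3-1 were 3.14, 2.53 and 3.18 TPM at 180 min of estradiol against 1.15, 1.45 and 1.42 TPM in the mock, and in Col-0 2.25, 2.43 and 1.92 TPM at 180 min of estradiol against 1.35, 1.2 and 1.22 TPM in the mock. No PID library at 180 min overlapped with the mock of its line, and at 90 min the means were 2.41 ± 0.479 TPM in ΔMP, 1.56 ± 0.146 TPM in AXR3-1 and 1.55 ± 0.195 TPM in Col-0. AT4G38860 had ratios of 5.02 in ΔMP, 1.75 in AXR3-1 and 1.52 in Col-0. In Col-0 its libraries overlapped, with 3.21, 3.22 and 1.5 TPM at 180 min of estradiol against 1.74, 0.647 and 2.31 TPM in the mock. At 90 min it was above the mock in ΔMP (ratio 1.78) and below it in AXR3-1 and Col-0 (0.614 and 0.622).

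The remaining risen genes with separate libraries in all lines were of mixed function. PSD2 (AT5G57190), which makes phosphatidylethanolamine from phosphatidylserine, had ratios of 1.55 in ΔMP, 1.79 in AXR3-1 and 1.54 in Col-0. AT5G41380, a protein with the CCT motif, had 1.84 in ΔMP, 2.75 in AXR3-1 and 1.6 in Col-0, and AT3G07350, a DUF506 protein, had 1.83 in ΔMP, 1.56 in AXR3-1 and 1.56 in Col-0. The uncharacterized AT1G04330 had 2.22 in ΔMP, 2.25 in AXR3-1 and 1.91 in Col-0, SBP2 (AT4G14040), a selenium-binding protein, had 1.48 in ΔMP, 1.45 in AXR3-1 and 1.49 in Col-0, and DJ1F (AT3G54600), of the DJ-1 family, had 1.44 in ΔMP, 1.42 in AXR3-1 and 1.53 in Col-0. In total 14 of the 23 risen genes had no overlap between the libraries at 180 min and those of the mock in any line. Among all loci with at least 2 TPM, 1.62% were separated upward in this way, a figure that the choice of the genes makes no basis for comparison.

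The libraries of the other 9 risen genes overlapped with the mock in at least 1 line. The chloroplast locus ATCG00140 had 0.39, 5.65 and 1.05 TPM at 180 min of estradiol against 0.498, 0.382 and 0.812 TPM in the mock of Col-0, where only library B was high. TI1 (AT2G43510), a trypsin inhibitor, had 0, 8.73 and 0 TPM at 180 min of estradiol against 0.818, 0 and 3.3 TPM in the mock of Col-0 and overlapped with the mock in every line. AT3G02480, of the LEA family of late embryogenesis proteins, was high in all ΔMP libraries at 180 min (14.9, 17 and 14.4 TPM) but in Col-0 had 1.62, 20.5 and 2.3 TPM, so that 1 library set the mean. ATCG00140, AT3G25572 and AT3G63052 did not pass the filter on low counts, which kept 20 of the 23 risen and 24 of the 24 fallen genes, and ATCG00140 and AT3G25572, like the fallen AT5G15948, had no entry in the RefSeq annotation, so that no function is given. EDA32, AT3G46880, GSTF11 and AT4G38860 complete the list.

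**Figure D1:**
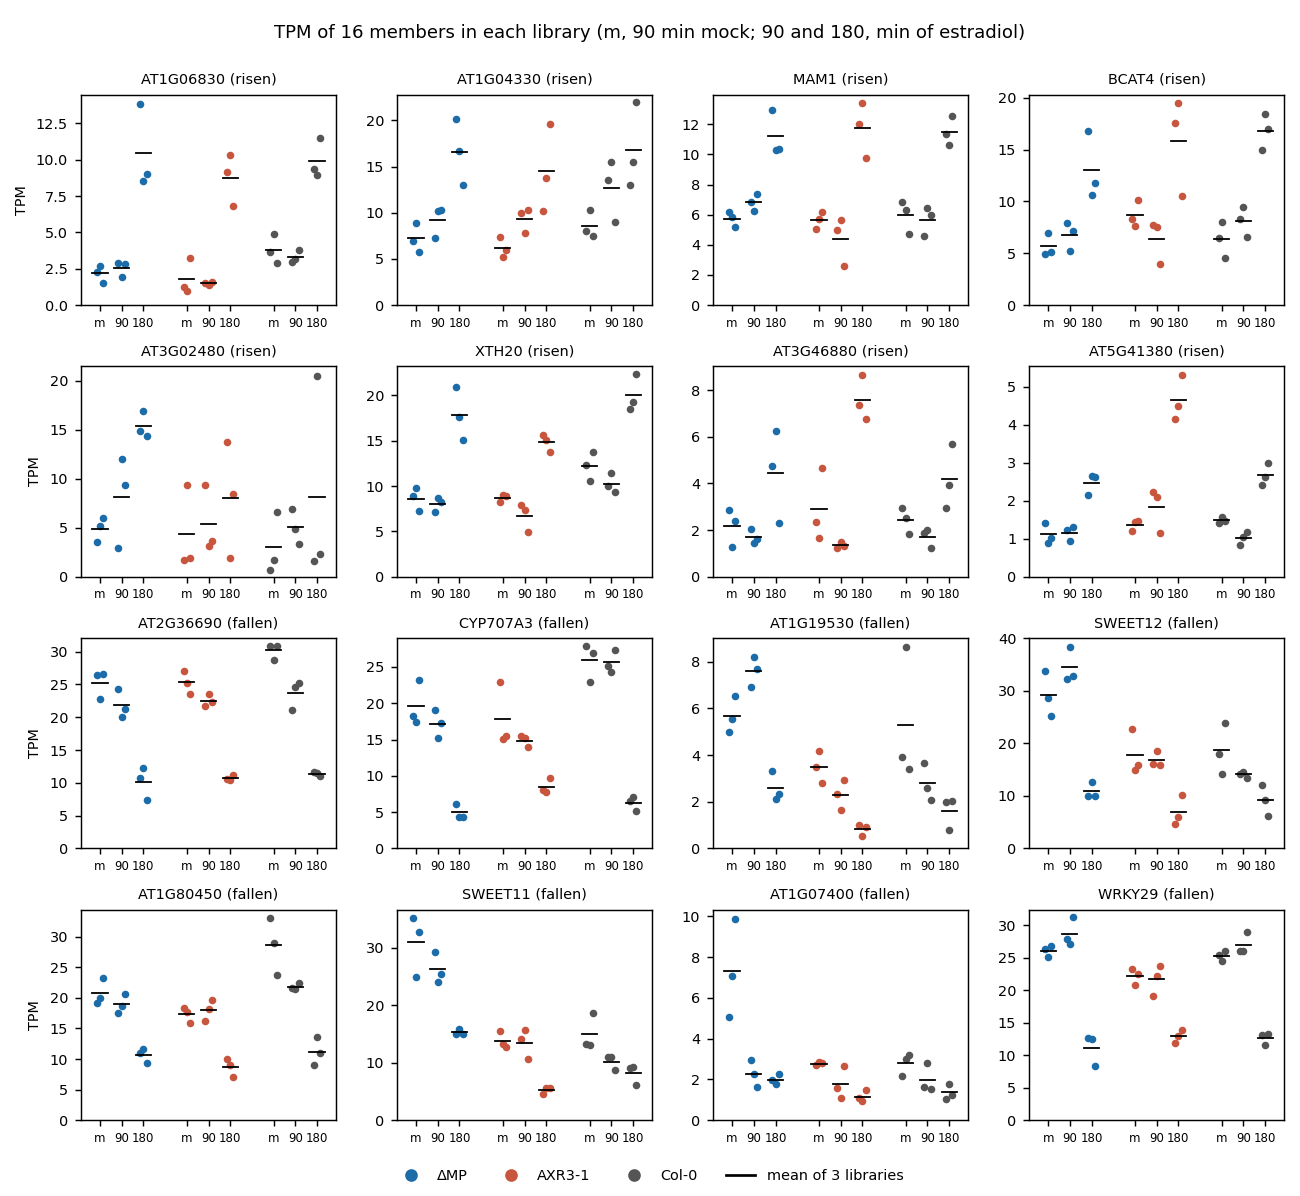
TPM of 8 risen genes (top rows) and 8 fallen genes (bottom rows) in each of 27 libraries. Within a panel the lines are ΔMP, AXR3-1 and Col-0, each with the mock (m), 90 and 180 min of estradiol on the horizontal axis. Points are libraries and bars the mean of 3; the scatter of AT3G02480 and the separate 180 min libraries of AT1G06830 and CYP707A3 can be seen.

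Among the fallen genes CYP707A3 (AT5G45340), which breaks down abscisic acid, had its lowest ratio in Col-0. It had 6.19, 4.35 and 4.37 TPM at 180 min of estradiol against 18.2, 17.4 and 23.2 TPM in the mock of ΔMP, 8.11, 7.76 and 9.67 TPM at 180 min of estradiol against 22.9, 15.1 and 15.4 TPM in the mock of AXR3-1, and 6.49, 7.04 and 5.22 TPM at 180 min of estradiol against 27.8, 23 and 26.9 TPM in the mock of Col-0. At 90 min it had 19, 15.2 and 17.3 TPM in ΔMP, 15.4, 15.2 and 13.9 TPM in AXR3-1 and 25.2, 24.3 and 27.4 TPM in Col-0. The libraries at 180 min were below every 90 min and mock library of their line, while the ratio of 90 min to the mock stayed at 0.879 in ΔMP, 0.839 in AXR3-1 and 0.991 in Col-0. Its relative CYP707A1, the other one of 4 in the family with 2 TPM, had ratios at 180 min of 1.63, 0.97 and 0.626 in ΔMP, AXR3-1 and Col-0. This family, like those of SWEET and trehalose phosphatase genes below, was looked up after the members had been seen.

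Another 5 of the fallen genes act in sugar transport, sugar signaling or carbon metabolism. SWEET11 (AT3G48740) and SWEET12 (AT5G23660) are the sucrose exporters that supply the phloem, and SWEET3 (AT5G53190) is of the same family. SWEET12 had 9.92, 12.7 and 9.94 TPM at 180 min of estradiol against 33.9, 28.7 and 25.2 TPM in the mock of ΔMP. In AXR3-1 it had 4.59, 5.93 and 10.2 TPM at 180 min of estradiol against 22.7, 15 and 15.9 TPM in the mock, and in Col-0 12.1, 9.27 and 6.11 TPM at 180 min of estradiol against 17.9, 14.2 and 23.9 TPM in the mock. SWEET11 had 14.9, 15.9 and 15 TPM at 180 min of estradiol against 35.1, 25 and 32.7 TPM in the mock of ΔMP. It had 4.51, 5.69 and 5.68 TPM at 180 min of estradiol against 15.5, 13.2 and 12.7 TPM in the mock of AXR3-1, and 9.13, 9.28 and 6.14 TPM at 180 min of estradiol against 13.3, 13.1 and 18.7 TPM in the mock of Col-0. No library at 180 min reached the mock of its line for either gene, and the levels in ΔMP were the highest of the 3 lines in the mock as well. SWEET3 had ratios of 0.653 in ΔMP, 0.396 in AXR3-1 and 0.601 in Col-0. Of 15 genes with a SWEET symbol in RefSeq 8 reached 2 TPM. The 5 of these that were not members had median ratios of 0.954 in ΔMP, 1.17 in AXR3-1 and 1.05 in Col-0. Genes of the family under another symbol were not looked up.

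TPPI (AT5G10100), one of the phosphatases that turn the sugar signal trehalose-6-phosphate into trehalose, moved in both directions. It had 10.9, 13.9 and 12 TPM in the Col-0 mock, 17.7, 15.5 and 17.1 TPM at 90 min and 7.54, 8.04 and 7.56 TPM at 180 min of estradiol. The same order held in the other lines, with ratios to the mock at 90 min of 1.14 in ΔMP, 1.51 in AXR3-1 and 1.35 in Col-0 and at 180 min of 0.555 in ΔMP, 0.564 in AXR3-1 and 0.643 in Col-0. All libraries at 180 min were below the mock, and all libraries at 90 min were above it, in each of the 3 lines. PPCK2 (AT3G04530), a kinase that activates phosphoenolpyruvate carboxylase, had ratios at 180 min of 0.637 in ΔMP, 0.612 in AXR3-1 and 0.663 in Col-0. Of 9 trehalose phosphatase genes found by their RefSeq symbols (TPPB to TPPJ) 7 reached 2 TPM. Genes of the family under another symbol were not looked up. The 6 that reached 2 TPM and were not members had median ratios of 0.906 in ΔMP, 1.4 in AXR3-1 and 0.849 in Col-0. In AXR3-1 the ratio was 2.14 for TPPD and 2.13 for TPPJ.

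Among regulators, WRKY29 (AT4G23550), a transcription factor known from immune signaling, was near the mock at 90 min and below it at 180 min. WRKY29 had 12.6, 12.4 and 8.42 TPM at 180 min of estradiol against 26.4, 25.2 and 26.8 TPM in the mock of ΔMP. The values in AXR3-1 were 11.9, 13 and 13.9 TPM at 180 min of estradiol against 23.3, 20.9 and 22.6 TPM in the mock, and in Col-0 13.1, 11.6 and 13.3 TPM at 180 min of estradiol against 25.4, 24.5 and 26.1 TPM in the mock. At 90 min its ratios were 1.1 in ΔMP, 0.977 in AXR3-1 and 1.07 in Col-0. AT1G80450, a protein with the VQ motif found in partners of WRKY factors, had ratios at 180 min of 0.524 in ΔMP, 0.517 in AXR3-1 and 0.402 in Col-0. HIS1-3 (AT2G18050), a linker histone known to be induced by drought, had 0.618 in ΔMP, 0.391 in AXR3-1 and 0.642 in Col-0. The dioxygenase AT2G36690 had similar ratios in the 3 lines: it averaged 10.1 ± 2.48 TPM at 180 min and 25.3 ± 2.2 TPM in the mock of ΔMP, 10.8 ± 0.413 and 25.3 ± 1.74 TPM in AXR3-1, and 11.4 ± 0.346 and 30.2 ± 1.22 TPM in Col-0. Reads of WRKY29 can include those of the overlapping GH9B15.

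A pair of heat-related genes followed another course. HSFA2 (AT2G26150), the heat shock factor that extends the response, had 11.4, 12.3 and 13.4 TPM in the ΔMP mock, 3.62, 3.02 and 4.07 TPM at 90 min and 5.32, 6.39 and 4.62 TPM at 180 min. In AXR3-1 it had 2.88, 3.13 and 2.31, then 1.52, 2.31 and 0.938, then 1.48, 1.87 and 1.83 TPM, and in Col-0 2.84, 3.81 and 3.33, then 2.01, 1.28 and 2.87, then 1.83, 1.02 and 1.68 TPM. Its means were already lower at 90 min than in the mock, where AXR3-1 and Col-0 libraries came close to or overlapped with the mock, and the ratios were 0.317 in ΔMP, 0.639 in AXR3-1 and 0.668 in Col-0, and in ΔMP the 180 min libraries lay between those of 90 min and the mock. AT1G07400, a small heat shock protein of the HSP20 family, had ratios of 0.353 in ΔMP, 0.689 in AXR3-1 and 0.75 in Col-0 at 90 min and of 0.318 in ΔMP, 0.505 in AXR3-1 and 0.564 in Col-0 at 180 min. The mock level of HSFA2 in ΔMP was above that of the other lines, with 12.4 ± 1.02 TPM in ΔMP, 2.77 ± 0.42 TPM in AXR3-1 and 3.32 ± 0.485 TPM in Col-0.

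The other fallen genes ranged from rare to abundant. AT1G19530, which RefSeq names as a DNA polymerase epsilon subunit and whose role in roots is not stated there, had ratios of 0.5 in ΔMP, 0.33 in AXR3-1 and 0.361 in Col-0. AT1G07175, named as an alternative NAD(P)H dehydrogenase, had 0.322 in ΔMP, 0.581 in AXR3-1 and 0.636 in Col-0, and the C1 domain protein AT1G44020 had 0.344 in ΔMP, 0.611 in AXR3-1 and 0.68 in Col-0. SNG1 (AT2G22990), which makes sinapoylmalate, a leaf UV screen, had 0.631 in ΔMP, 0.522 in AXR3-1 and 0.692 in Col-0. Of the DUF581 family, AT4G39795 had 0.517 in ΔMP, 0.563 in AXR3-1 and 0.594 in Col-0 and AT2G44670 had 0.7 in ΔMP, 0.62 in AXR3-1 and 0.648 in Col-0. The remorin AT3G57540 had 0.581 in ΔMP, 0.615 in AXR3-1 and 0.677 in Col-0, the CAP family protein AT4G07820 0.52 in ΔMP, 0.677 in AXR3-1 and 0.48 in Col-0, and the exostosin AT3G42180 0.679 in ΔMP, 0.622 in AXR3-1 and 0.698 in Col-0. TPX2 (AT1G65970), here a thioredoxin-dependent peroxidase, was the most abundant of all members, with 185 ± 3.31 TPM at 180 min and 328 ± 13.5 TPM in the mock of Col-0, and its reads can include those of the overlapping GAD2. In total 22 of the 24 fallen genes had no overlap between 180 min and the mock in any line, where 1.93% of loci with 2 TPM were separated downward, again with nothing to be read from the comparison. The exceptions were AT4G07820, which overlapped in AXR3-1, and AT5G15948, which overlapped in AXR3-1 and Col-0.

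Over all members the ratio of 180 min to the mock had a median of 1.84 in ΔMP (1.43 to 5.02), 1.75 in AXR3-1 (1.42 to 4.00) and 1.6 in Col-0 (1.42 to 2.69) for the risen genes, and of 0.519 (0.272 to 0.700), 0.563 (0.330 to 0.706) and 0.580 (0.256 to 0.698) for the fallen. By these medians most of the difference lay between 90 and 180 min, except for the fallen genes in Col-0, where both intervals had similar ratios. The ratio of 90 min to the mock had medians of 1.15, 0.932 and 0.993 in ΔMP, AXR3-1 and Col-0 for the risen genes, and of 0.975, 0.929 and 0.767 for the fallen. The ratio of 180 to 90 min had medians of 1.6, 1.74 and 1.66 for the risen, and of 0.577, 0.537 and 0.721 for the fallen, while the median of all genes with 2 TPM was between 0.973 and 1.01 in each of these comparisons. At 90 min 16 of the 23 risen and 14 of the 24 fallen genes were short of the chosen ratio in all 3 lines. The 90 min ratios share the mock libraries with the choice of genes, and the ratios of 180 to 90 min share the 180 min libraries, so neither is independent of it.

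**Figure D2:**
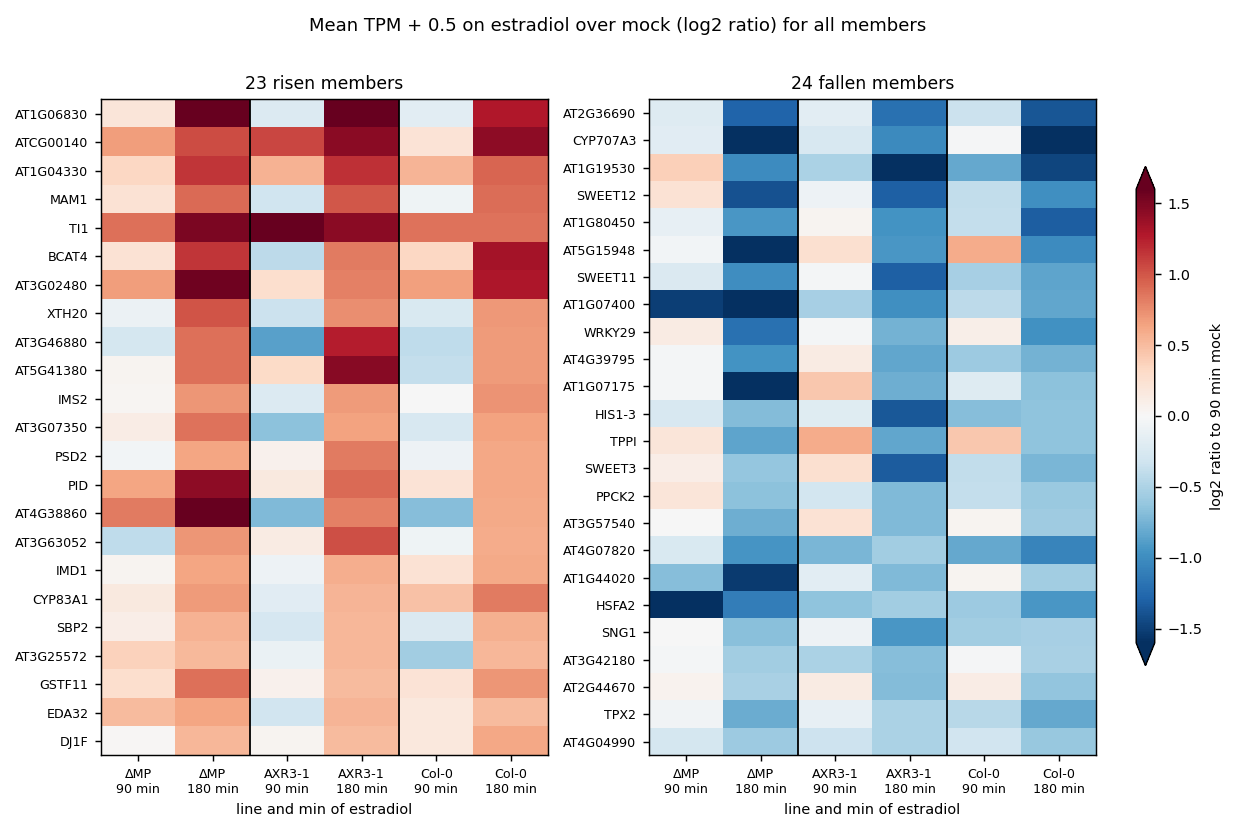
Heat map of the log2 ratio to the mock of the same line for the 47 genes (rows), at 90 and 180 min of estradiol in ΔMP, AXR3-1 and Col-0 (columns); red is above and blue below the mock. At 180 min all rows hold one color because the genes were chosen so, and at 90 min most rows are pale, with HSFA2 and AT1G07400 already blue and TPPI red.

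Whether 1 line followed the other 2 could be tested, because the choice of genes can be made without it. Genes were selected on the ratios of 2 lines alone, by the same limits, and tested in the line left out with edgeR's quasi-likelihood test, with Benjamini-Hochberg adjustment over the 19530 genes tested and an adjusted p of at most 0.05. A gene is said to have risen or fallen below where it passed this test. Each of these selections contains the 47 genes, so the 3 lines do not give separate evidence, and the 3 contrasts within a line share libraries. The labels do not say that the 3 libraries of a group came from separate cultures, so that the p-values measure the spread between these libraries.

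In Col-0, which holds neither transgene, 61 genes were chosen as risen in ΔMP and AXR3-1, and 52 could be tested. Of these, 18 (34.6%) rose and 1 fell from the mock to 180 min of estradiol, where 2.28% of all genes rose and 4.03% fell. At 90 min 1 rose and 1 fell against the mock (all genes, 0.548% and 2.39%), where the rise was lost without any 1 of the 6 libraries, and from 90 to 180 min 17 rose and 1 fell (2.83% and 2.82%). Of 71 genes chosen as fallen 63 were tested, and 23 (36.5%) fell and 0 rose at 180 min against the mock. The 0 held with DESeq2 and limma too, and at an unadjusted p under 0.05 43 of the 63 fell and 0 rose with edgeR. Between 90 and 180 min 15 fell and 0 rose (27 and 2 unadjusted), and at 90 min against the mock 10 fell and 6 rose. This last count of 10 was 5 to 7 in the 6 sets that leave out 1 library, and 4 or 5 with limma. It was 5 without library A and 6 without library C of 90 min.

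In ΔMP, 46 of 57 genes chosen as risen in AXR3-1 and Col-0 were tested. At 180 min 21 (45.7%) rose and 3 fell against the mock (all genes, 12.7% and 12.1%), at 90 min 1 rose and 3 fell (1.28% and 2.75%), and from 90 to 180 min 22 rose and 2 fell (11.1% and 10.2%). The single rise at 90 min was lost without mock library A, 90 min library B or 90 min library C. Of 60 tested genes chosen as fallen (68 in all), 24 fell and 4 rose at 180 min, 4 fell and 0 rose at 90 min (8 and 3 unadjusted, and 0 rose with DESeq2 and limma too), and 24 fell and 5 rose from 90 to 180 min.

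In AXR3-1 the selected genes moved in both directions. Of 94 genes chosen as risen in ΔMP and Col-0, 82 were tested, and at 180 min 19 (23.2%) rose while 27 (32.9%) fell against the mock, with 10.6% and 8.88% of all genes. At 90 min 0 rose and 17 fell (2.62% and 3.23% of all genes). With an unadjusted p under 0.05, 0 rose and 35 fell by edgeR, 0 rose by DESeq2 and 1 by limma. From 90 to 180 min 22 rose and 21 fell (9.4% and 7.78%). Of 126 tested genes chosen as fallen (132 in all), 32 fell and 28 rose at 180 min, 12 fell and 12 rose at 90 min, and 28 fell and 22 rose from 90 to 180 min. The 12 that fell at 90 min were 6 to 8 in the 6 sets that leave out 1 library. They were 6 without 90 min library A and 7 without mock library C.

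**Figure D3:**
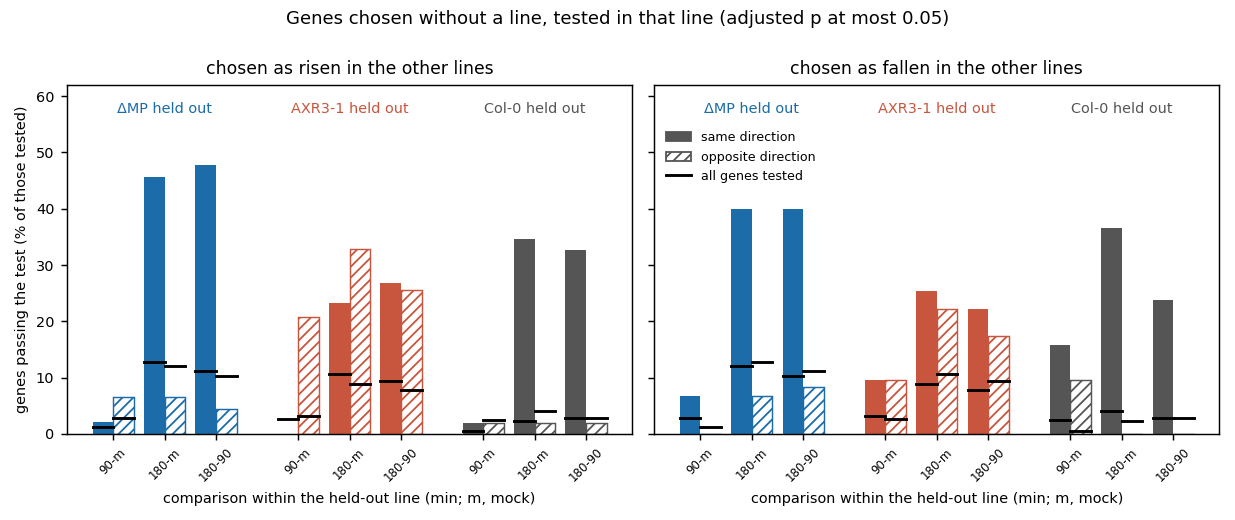
Percentage of tested genes that passed an adjusted p of 0.05 in the line left out of the choice, in the direction of the other 2 lines (filled bars) and in the opposite direction (hatched bars), for each contrast; black lines give the percentage of all 19530 genes. In Col-0 the filled bars of 180 min stand at 34.6% and 36.5%, and in AXR3-1 at 180 min against the mock the filled and hatched bars stand at 23.2% and 32.9% for the genes chosen as risen.

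Single genes selected on ΔMP and AXR3-1 alone, 10 risen and 10 fallen ones with a symbol and the strongest change in both of those lines, were then read in Col-0. At 180 min against the mock, BCAT4 rose with a log2 fold change of 1.41 ± 0.23 (standard error, edgeR adjusted p = 0.000163), MAM1 with 0.97 ± 0.16 (adjusted p = 0.000169), PID with 0.82 ± 0.21 (adjusted p = 0.0158) and XTH20 with 0.74 ± 0.13 (adjusted p = 0.00036). The rise of PID missed the threshold without mock library B, or 180 min library A or B (adjusted p up to 0.063). TCH3, a calcium-binding protein known for its response to touch, went the other way in Col-0 with −0.89 ± 0.23 (adjusted p = 0.0176, lost without mock library A or B or 180 min library B or C, with adjusted p up to 0.0744). The other 5 had adjusted p between 0.114 and 0.983, among them RNS1, a ribonuclease with a ratio of 32.4 in ΔMP and a log2 fold change of 0.09 ± 0.35 in Col-0, GSTU11, WRKY51, ARGOS and TI1.

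Of the 10 chosen as fallen, 7 fell in Col-0. CYP707A3 had −2.02 ± 0.15 (edgeR adjusted p = 3.1e-10), WRKY29 −0.99 ± 0.10 (adjusted p = 3.46e-07), SWEET12 −0.98 ± 0.22 (adjusted p = 0.00521) and SWEET11 −0.85 ± 0.18 (adjusted p = 0.00242). TPPI had −0.65 ± 0.11 (adjusted p = 0.000366) at 180 min but 0.46 ± 0.10 (adjusted p = 0.00616) at 90 min against the mock, and fell by 1.1 on the log2 scale between 90 and 180 min (adjusted p = 1.77e-08). ELIP1, a light-stress protein of the chloroplast, showed the same course in Col-0 with 0.98 ± 0.09 at 90 min (adjusted p = 1.12e-08) and −0.43 ± 0.10 at 180 min (adjusted p = 0.00553). HIS1-3 had −0.62 ± 0.19 (adjusted p = 0.0402), which was lost in 5 of the 6 sets that leave out 1 library (adjusted p up to 0.152). SWEET12 missed the threshold without mock library C or 180 min library C (adjusted p up to 0.0638), and ELIP1 without mock library B (adjusted p = 0.0529). BBX31, XTH24 and ST4A did not pass, with −0.55 ± 0.49, −0.36 ± 0.14 and 0.16 ± 0.25, and XTH24 passed without mock library B (adjusted p = 0.0292). At 90 min against the mock, HIS1-3 had −0.78 ± 0.18 (edgeR adjusted p = 0.0114) and SWEET11 −0.58 ± 0.16 (adjusted p = 0.0478). From 90 to 180 min neither passed, with 0.16 ± 0.20 (adjusted p = 0.749) and −0.27 ± 0.19 (adjusted p = 0.483). CYP707A3, WRKY29 and SWEET12 did not pass at 90 min (adjusted p = 0.987, 0.82 and 0.341).

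The ratios that chose the members did not use the 90 min estradiol libraries, which entered only through the minimum of 2 TPM in some group. Differences between the lines at 90 min can thus be tested in the same fit, while those in the mock were not tested. Between ΔMP and Col-0, 16 of the 44 members tested (36.4%) differed, 10 higher and 6 lower in ΔMP, where 9.44% of all genes differed. Between AXR3-1 and Col-0 it was 4 of 44 (9.09%), 1 higher and 3 lower, where 4.38% of all genes differed, and 2 of 44 without 90 min library B of Col-0. Between ΔMP and AXR3-1 it was 13 of 44 (29.5%), 11 higher and 2 lower in ΔMP, against 12.4% of all genes. In ΔMP against Col-0, 11 of the 24 fallen and 5 of the 20 risen genes tested were among the 16.

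The 5 largest differences between ΔMP and Col-0 were in 4 fallen genes and 1 risen gene. SWEET11 had 29.2, 24 and 25.5 TPM in ΔMP against 11, 11 and 8.66 TPM in Col-0 at 90 min, a log2 fold change of 1.37 ± 0.15 (adjusted p = 7.86e-08) by edgeR, and SWEET12 had 32.3, 38.4 and 32.7 TPM against 14.3, 14.6 and 13.5 TPM, a log2 fold change of 1.28 ± 0.18 (adjusted p = 6.7e-06). SNG1 had 1.3 ± 0.15 (adjusted p = 1.21e-07) and AT1G19530 1.43 ± 0.31 (adjusted p = 0.00204) in the same comparison. The auxin-responsive AT4G38860, a risen member, had 2.72, 3.09 and 2.92 TPM in ΔMP against 0.476, 0.557 and 1.32 TPM in Col-0, a log2 fold change of 1.85 ± 0.44 (adjusted p = 0.00492). In the mock, SWEET11 averaged 31 TPM in ΔMP and 15 TPM in Col-0, and SWEET12 29.2 and 18.7 TPM. The mock of SNG1 had 8.3, 6.7 and 8.0 TPM in ΔMP against 5.7, 4.4 and 5.6 TPM in Col-0. For AT1G19530 and AT4G38860 the mock libraries of these lines overlapped. Leaf-related genes were also more abundant in ΔMP: 8 green tissue markers summed to 147 to 153 TPM in ΔMP at 90 min, against 90 to 96.1 TPM in Col-0 and 77.4 to 90.3 TPM in AXR3-1, with 1 of the 8 under 0.1 TPM, and their part in the differences of SWEET11, SWEET12 and SNG1 was not tested. In the mock these markers summed to 121 to 132 TPM in ΔMP, 76.8 to 94.3 TPM in Col-0 and 88.7 to 89.9 TPM in AXR3-1. At 180 min the sums were 103 to 108, 88.5 to 110 and 80.7 to 92.7 TPM.

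Against AXR3-1, the edgeR log2 fold changes in ΔMP at 90 min were 1.69 ± 0.32 (adjusted p = 0.000239) for AT1G19530, 1.64 ± 0.42 (adjusted p = 0.00693) for AT4G38860 and 1.17 ± 0.21 (adjusted p = 0.000161) for HSFA2. SWEET12 had 1.00 ± 0.18 (adjusted p = 9.39e-05) and SWEET11 0.92 ± 0.14 (adjusted p = 1.29e-05). In the mock, HSFA2 had 11.4, 12.3 and 13.4 TPM in ΔMP against 2.88, 3.13 and 2.31 TPM in AXR3-1. SWEET12 averaged 29.2 and 17.9 TPM there, and SWEET11 31 and 13.8 TPM. AT1G19530 had 5.0, 5.5 and 6.5 against 3.5, 4.2 and 2.8 TPM, and the mock libraries of AT4G38860 overlapped. The difference of AT4G38860 missed the threshold without 90 min library A of AXR3-1 (adjusted p = 0.0606). In AXR3-1 against Col-0, AT5G41380 was higher by 0.87 ± 0.24 (adjusted p = 0.0256), while CYP707A3 had −0.78 ± 0.13 (adjusted p = 0.000177), AT2G44670 −0.68 ± 0.10 (adjusted p = 3.03e-05) and XTH20 −0.57 ± 0.15 (adjusted p = 0.0174). In the mock, AT2G44670 had 117, 99.2 and 101 TPM in AXR3-1 against 183, 167 and 163 TPM in Col-0. CYP707A3 averaged 17.8 ± 4.4 and 25.9 ± 2.58 TPM there, and XTH20 had 8.23, 8.98 and 8.89 against 12.3, 10.6 and 13.8 TPM. The mock libraries of AT5G41380 overlapped. AT5G41380 lost its call without 90 min library A or B of AXR3-1 or of Col-0 (adjusted p up to 0.224), and XTH20 without library C of AXR3-1 or library B of Col-0 (adjusted p up to 0.137).

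**Figure D4:**
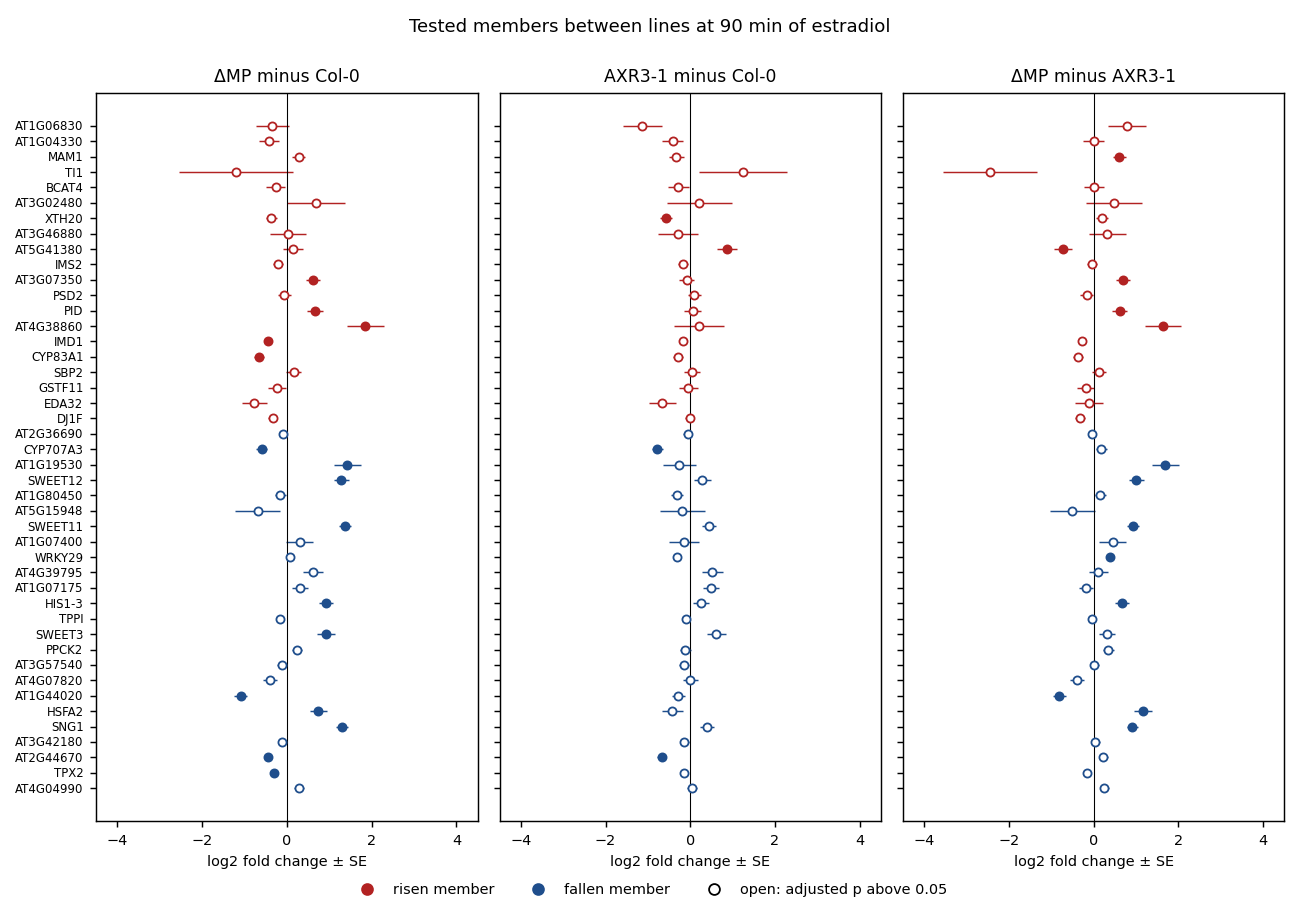
Log2 fold change at 90 min of estradiol between lines for the 44 members tested, with bars of 1 standard error; filled points passed an adjusted p of 0.05. The 3 panels are ΔMP against Col-0 (16 filled points), AXR3-1 against Col-0 (4) and ΔMP against AXR3-1 (13).

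Several genes lay close to the limits on either side. Just inside for a rise stood DJ1F, EDA32 and GSTF11, each with a smallest ratio between 1.42 and 1.43, and just outside BT2, a nitrate- and sugar-responsive BTB protein, with 1.39, 1.47 and 1.74 in ΔMP, AXR3-1 and Col-0, then the glycosyltransferase AT2G31790 with 1.56, 1.47 and 1.39 and AT3G14395 with 1.82, 2.15 and 1.36. Just inside for a fall stood AT4G04990, TPX2 and AT2G44670, each with a largest ratio between 0.700 and 0.706. Just outside were BBX31 with 0.583, 0.576 and 0.714, AT1G64370 with 0.672, 0.707 and 0.716, and AT3G62422 with 0.667, 0.545 and 0.720. When each of the 18 libraries behind the ratios was left out in turn, 11 of the 23 risen and 14 of the 24 fallen genes stayed members every time. Those lost most often were AT3G25572 (8 of 18), SBP2 and EDA32 (5 of 18 each).

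In 20 lists of genes of the clock, stress, nutrients, metabolism, growth and hormones, HSFA2 was the only member found, in the list of heat and protein folding. The same lists show how known pathways moved in all lines in the test against the mock at 180 min. Over all genes, 0.456% rose and 0.62% fell in all 3 lines. Of 28 clock genes 9 fell in ΔMP, 9 in AXR3-1 and 7 in Col-0, where 12.1%, 8.88% and 4.03% of all genes fell, and 5 fell in all 3 (CCA1, PRR7, GI, LNK1 and CDF3). At 90 min GI, for example, had log2 fold changes of 0.14 in ΔMP, 0.27 in AXR3-1 and 0.19 in Col-0, against −0.46, −0.31 and −0.56 at 180 min. The Col-0 count of 7 was 4 without mock library A or B or without 180 min library B. Of 10 heat genes, 7 fell in ΔMP, 7 in AXR3-1 and 4 in Col-0 at 90 min (2.75%, 3.23% and 2.39% of all genes), and 8, 2 and 4 at 180 min (12.1%, 8.88% and 4.03% of all genes), with HSP101 and HSP90.1 in all 3 at 180 min. The count of 2 in AXR3-1 was 1 without 180 min library B or C. The member HSFA2 is among the 10 heat genes tested. It was chosen on the mock and 180 min libraries, so for this gene these tests are not independent of the choice. Of 10 ribosome biogenesis genes, 7 rose in ΔMP, 5 in AXR3-1 and 2 in Col-0 at 180 min (12.7%, 10.6% and 2.28% of all genes), with list medians of 0.20, 0.17 and 0.08 on the log2 scale, against 0.02, 0.01 and −0.03 at 90 min. NOP56 was among those in all 3 lines, and TCP14, a transcription factor of the list, fell in AXR3-1. The AXR3-1 count was 3 without mock library B or 180 min library A, and the Col-0 count was 0 without mock library C or 180 min library A. The lists with no gene that passed in all 3 lines were those of touch and wounding, low oxygen, sulfur, iron, detoxification, mitosis, DNA replication, and auxin, brassinosteroid, cytokinin and ethylene response. The other lists had 1 gene that fell, 1 that rose, or both, in all 3 lines. The names given here were chosen after their values had been seen.

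**Figure D5:**
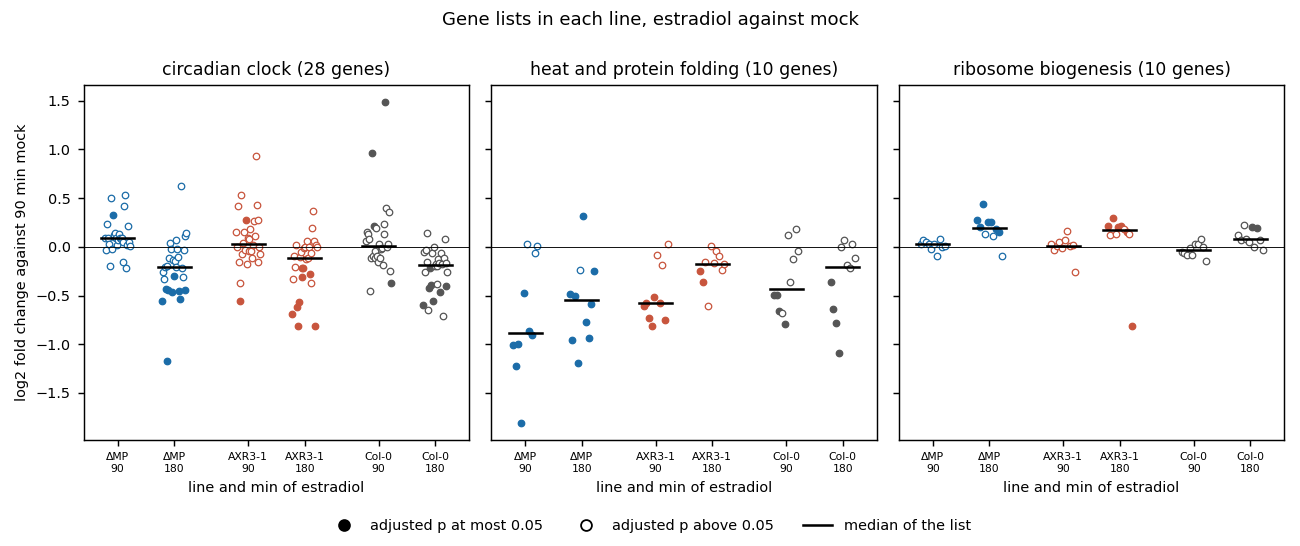
EdgeR log2 fold change against the mock for the genes of 3 lists at 90 and 180 min of estradiol in each line; filled points passed an adjusted p of 0.05 and lines give the median. The median of the clock genes lies lower at 180 than at 90 min in every line, most heat genes are below 0 at both times, and ribosome biogenesis genes shift slightly above 0 at 180 min. The heat genes include the member HSFA2, which was chosen on the mock and 180 min libraries.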

How the data were processed

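The authors sequenced polyA-selected RNA of 27 root-tip libraries and quantified the reads with Salmon 1.3.0 on the coding sequences of TAIR10, which hold no UTRs. The methods name Rcorrector and Trim Galore, and the submitters' processing notes name Trimmomatic, for the reads before that. The authors deposited estimated counts (read pairs per transcript, not scaled for depth) and TPM (the same abundances corrected for effective length and scaled to 1 total per library). Both were summed per locus here. Estimated counts were rounded and fitted with edgeR 4.0.16 (R 4.3.3; quasi-likelihood test, TMM, filterByExpr, a mean per group, all 27 libraries), which tested 19530 of 27313 genes with Benjamini-Hochberg adjustment. Low counts leave a wide error: depth was 13634037 to 34272503 pairs.

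The members and the gene lists were chosen with earlier results of these data known. Genes were named by rule: the 15 risen and 15 fallen members first in rank by the weakest of their 3 ratios, the 10 and 10 with a symbol selected on ΔMP and AXR3-1 alone, 3 on each side of a limit, members in a list, and the 5 largest differences between lines at 90 min. Other members are named to account for all 47. Names and sequences are from RefSeq TAIR10.1 (26633 loci matched), whose coordinates are 1-based. Of the lists' symbols, 10 did not match, and those that several loci share were matched by locus. The letters A, B and C are not stated to pair libraries. Same-letter libraries deviated together from their group means in 1 of 9 comparisons within a line, 180 with 90 min of estradiol in Col-0 (correlations of 0.116, 0.14 and 0.276), and in the others at most 0.0862. The scripts were tested on simulated data. Alternatives were DESeq2 1.42.0, limma 3.58.1 on log2(TPM + 0.5) and log2(TPM + 1), library totals without TMM, no filter (23904 genes), only the libraries compared, a minimum fold of 1.4, the replicate letter as a block, other limits for the choice, and leaving out each library.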

Additional observations from a re-analysis of the deposited data

How the results depend on the processing

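The settings tried changed no sign of a call, and with DESeq2, without the filter on low counts and with the replicate block all but 1 count stayed within 1.5 times of the values given. With ratios of 1.5 and 0.67 as limits, 15 genes were fallen members. Leaving out each of 18 libraries gave 19 to 27 risen (17 or more of them shared with the 23) and 22 to 29 fallen members (21 or more shared with the 24).

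In the line left out of the choice, a minimum fold of 1.4 gave 21 of the fallen genes in AXR3-1 at 180 min and 7 at 90 min, where limma gave 6 with either pseudocount. In Col-0 at 90 min, the count of fallen genes was 4 or 5 by limma with 0.5 or 1 TPM added, and that of risen genes was 0 by DESeq2, limma and the minimum fold and 2 with only the libraries compared. Without 1 library the counts at 90 min were 0 to 1 for risen genes in ΔMP, 6 to 8 for fallen genes in AXR3-1, 0 in all 6 sets for risen and 5 to 7 for fallen genes in Col-0, and AXR3-1 differed from Col-0 at 90 min in 2 to 4 members.

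Clock genes that fell at 180 min against the mock numbered 15 in ΔMP and 4 in Col-0 with only the libraries compared, and 3 in ΔMP, 5 in AXR3-1 and 2 in Col-0 with the minimum fold, which also gave 6 in ΔMP and 6 in AXR3-1 between 90 and 180 min. Without 1 library they were 10 to 15 in ΔMP and 6 to 8 in AXR3-1 between 90 and 180 min, and 4 to 7 in Col-0 against the mock. Ribosome biogenesis genes that rose were 0 in each line with the minimum fold, 3 in AXR3-1 with library totals and 0 in Col-0 with only the libraries compared, and 3 to 5 in AXR3-1 and 0 to 3 in Col-0 without 1 library. Heat genes that fell in AXR3-1 at 180 min were 5 with library totals, 0 with the minimum fold and 1 to 3 without 1 library. These 3 lists were picked for this after seeing the data. A minimum fold takes genes away by its construction, and the cause of the other differences was not tested.

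Among single genes, TCH3 in Col-0 missed the threshold by limma (−0.53, adjusted p = 0.132, and −0.48, adjusted p = 0.14), and so did HIS1-3 in Col-0 (−0.62, adjusted p = 0.0507) and AT5G41380 in AXR3-1 against Col-0 (0.86, adjusted p = 0.111) with only the libraries compared. With the replicate block over all libraries, all 36 counts were within 1.5 times, for example 25 fallen genes in Col-0 at 180 min in place of 23. Same-letter libraries deviated together in 1 comparison, 180 with 90 min in Col-0, though the labels do not say that letters pair libraries. There the block in a fit of the 6 libraries compared, added after seeing the data, gave 18 risen genes in place of 17. It gave 22 fallen genes in place of 15, and TPPI had an edgeR adjusted p of 3.5e-07. Depth limits genes of few reads, such as TI1 with 17 counts over the 3 libraries of Col-0 at 180 min.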
